A study of Mus musculus with 11 samples.

Results

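The cytosolic ribosomal protein genes were described in mouse epiblast stem cells (EpiSCs) as the genes whose array symbol is an Rpl or Rps gene, or Rplp0, Rplp1, Rplp2 or Rpsa, leaving out the S6 kinases and pseudogenes. The rule found 54 genes on 74 of 15718 probes, which are 54 of the 11208 features tested. Of these, 33 belong to the large (60S) subunit and 21 to the small (40S) subunit. Rpsa, Fau and Rack1 had no measured probe under their symbols and were not analysed here.

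The data are Illumina array values of total RNA from 11 samples of 129xMF1 EpiSCs, pluripotent cells that resemble the postimplantation epiblast, grown in N2B27 medium with Activin and Fgf. The GY118F EpiSCs carry a transgene for a hybrid receptor, whose outer domain binds G-CSF and whose inner domain is that of gp130 with the Shp2-recruiting tyrosine replaced, so that G-CSF activates STAT3. The groups were GY118F EpiSCs exposed to G-CSF for 3 hours (n = 2), GY118F EpiSCs without G-CSF (n = 3), EpiSCs without the transgene given G-CSF for 3 hours (control EpiSCs, n = 3) and control EpiSCs without G-CSF (n = 3). The labels name neither a promoter for the transgene nor a clone, and do not say whether replicates were separate cultures; the p-values therefore cover only the spread among these arrays, part of which may be technical.

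A ribosome holds a single copy of nearly every ribosomal protein, and the 60S subunit catalyses peptide bond formation while the 40S subunit decodes the mRNA. The mRNAs of ribosomal proteins are among the most abundant of growing cells and are long-lived. Most begin with a 5′ terminal oligopyrimidine (5′ TOP) tract, a C followed by further C and T bases, through which mTORC1 and the RNA-binding protein LARP1 set how much of the mRNA is translated rather than how much of it is present. An array measures the mRNA level and not this translational control.

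The start sites are shown because the tract lies in the first bases of these mRNAs. RefSeq (GRCm38.p6) promoter sequences were matched for 46 of the 54 genes. Each line gives 10 bases before and 20 bases from the most upstream annotated start, 5′ to 3′ on the gene's strand, so that the start is base 11. Capitals mark runs of at least 5 pyrimidines (C or T). The first 3 genes had the largest called falls after G-CSF in GY118F EpiSCs, Rps27l and Rpl23 are those of the 3 called rises whose sequence was matched, Rplp0 and Rplp2 form the ribosomal stalk, and the last 3 were chosen after reading the sequences as examples of long pyrimidine runs.
Rpl22, chr4:152324426-152324455, plus strand: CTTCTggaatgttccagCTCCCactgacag
Rpl13a, chr7:45128726-45128755, minus strand: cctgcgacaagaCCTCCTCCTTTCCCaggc
Rpl24, chr16:55966265-55966294, plus strand: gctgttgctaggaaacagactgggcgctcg
Rps27l, chr9:66946076-66946105, plus strand: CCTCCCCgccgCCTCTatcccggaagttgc
Rpl23, chr11:97782420-97782449, minus strand: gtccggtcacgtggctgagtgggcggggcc
Rplp0, chr5:115559457-115559486, plus strand: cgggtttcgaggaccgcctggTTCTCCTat
Rplp2, chr7:141447641-141447670, plus strand: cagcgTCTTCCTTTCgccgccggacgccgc
Rpl28, chr7:4792955-4792984, plus strand: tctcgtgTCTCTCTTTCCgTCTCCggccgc
Rpl35, chr2:39005112-39005141, minus strand: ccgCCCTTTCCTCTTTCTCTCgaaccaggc
Rps6, chr4:86857348-86857377, minus strand: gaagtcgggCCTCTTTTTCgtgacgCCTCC

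A run of at least 5 pyrimidines was present in 32 of the 46 windows. The letters CTTTC or CTTTT on the gene's strand were in 12 windows (26.1%), against 5.52% of the 7496 measured genes with a promoter sequence and 6.53% of all 27025 promoters. CTTT beginning at base 11 was found in 2 windows, those of Rpl38 and Rplp2 (4.35%), against 0.334% of measured genes. In the 300 bases around the start, CCGGAAG, the letters bound by ETS factors such as GABPA, was present on either strand in 19 of 46 (41.3%), against 19.2% of measured genes. TTCCNGGAA, the letters of STAT binding sites, was present only in the Rpl35 promoter (2.17%), against 1.24% of measured genes. Annotated starts can lie some bases from the used start, so a window without a tract says only that these letters are not at that position.

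The cells carried EpiSC markers: 8 of 8 listed EpiSC genes were measured and 6 had means above the feature median of 8.33. The brightest were Dnmt3b (13.27 to 13.94) and Pou5f1 (11.75 to 12.92), while Lefty2 (7.18 to 8.29) and Cer1 (7.32 to 7.90) lay below it. Otx2 averaged 8.19 in unstimulated GY118F and 10.28 in unstimulated control EpiSCs. Means above the median were also found for 1 of 4 measured trophoblast genes (Krt8) and 1 of 1 neural gene (Nes). For endoderm and naive pluripotency they were found for 0 of 2 and 0 of 1. The only measured fibroblast feeder markers, Thy1 and Dcn, lay at 7.47 to 8.69 and 7.31 to 8.26 on a scale that ran from 7.11 to 15.22. Thy1 averaged 8.61 in unstimulated control EpiSCs, above the feature median, and 7.79 in unstimulated GY118F EpiSCs. Dcn went the other way, at 7.36 in unstimulated control and 7.73 in unstimulated GY118F EpiSCs. Of listed haematopoietic markers 0 of 5 were measured. The STAT3 target Socs3 averaged 11.96 in GY118F EpiSCs with G-CSF and 8.96 without, against 8.06 in control EpiSCs with G-CSF and 8.23 without. Across features, Pearson's r was 0.994 to 0.998 within groups and 0.960 to 0.982 between groups. Once sorted, the arrays' values were equal to within 0.00116, which means that they were quantile-normalized and that any change in total mRNA per cell is not in the values.

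Ribosomal protein signals lay near the top of the scale. Mean values were at least 13 for 38 of the 54 genes, and 42 lay above 11.86, the 95th percentile of all features. These are probe signals, which do not rank the transcripts of different genes by amount. Rplp1, an acidic protein of the 60S stalk, gave 15.22, the top of the scale, on both GY118F arrays with G-CSF, on 2 of 3 GY118F arrays without it, on 1 of 3 control arrays with it and on 1 of 3 control arrays without it. A member was the brightest feature on 7 of 11 arrays, and a value at the top of a quantile-normalized scale has no room to rise. Means were lowest for Rpl22l1 (7.45), Rps15a (7.72), Rpl21 (8.15) and Rps3a1 (8.67).

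**Figure D1:**
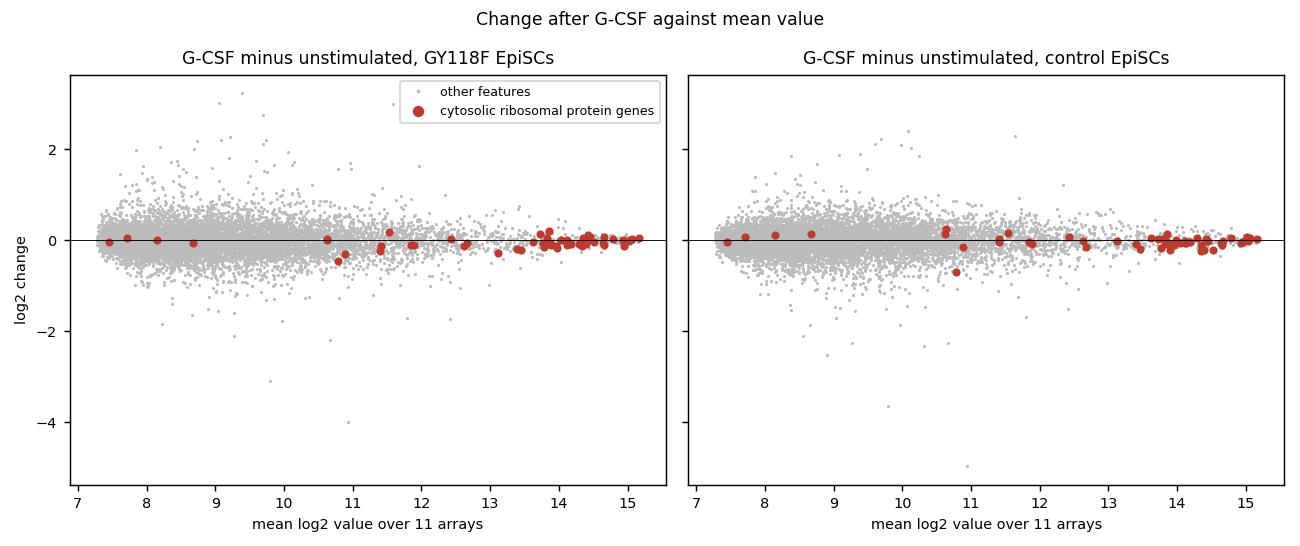
Each point is a feature, with its mean log2-scale value over the 11 arrays on the x axis and its log2 change, G-CSF minus unstimulated, on the y axis, for GY118F EpiSCs (left) and control EpiSCs (right). The 54 ribosomal protein genes (red) lie mostly at values of 13 or more, with changes between -0.45 and 0.20 in GY118F EpiSCs and between -0.695 and 0.25 in control EpiSCs.

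The change after G-CSF in cells that carry the receptor was read in GY118F EpiSCs. It can include changes that do not need the receptor. A change is called here when its limma p-value, adjusted by Benjamini-Hochberg over all 11208 features, is under 0.05. Among the 54 ribosomal protein genes 3 rose and 5 fell (14.8%), while 39.8% of all features were called, 17.8% higher and 21.9% lower. None of the 54 changed by over 1.4-fold, the fold threshold in the study's design, against 8.39% of all features. The median log2 change of the members was -0.06, against -0.01 over all features. Values were below 0 for 36 of the 54 members and for 5801 of the 11208 features. In bulk RNA a lower level in each cell and fewer cells with that level cannot be told apart.

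Rpl22, a 60S protein that binds RNA and that in mice represses its paralog Rpl22l1, fell most. Its values were 10.26 and 10.21 on the GY118F arrays with G-CSF, against 10.76, 10.73 and 10.57 on the GY118F arrays without it. The arrays did not overlap. The log2 change was -0.45 ± 0.08 (SE, adjusted p = 6.19e-04), or 0.732-fold. The paralog Rpl22l1 averaged 7.48 ± 0.02 (SD, n = 2) with G-CSF and 7.53 ± 0.10 (SD, n = 3) without it, near the bottom of the scale, and was not called (log2 change -0.05 ± 0.07, adjusted p = 0.602).

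Rpl24, a 60S protein at the interface with the 40S subunit and the gene mutated in the Belly spot and tail mouse, gave 12.85 and 12.87 in GY118F EpiSCs with G-CSF. Without G-CSF it gave 13.19, 13.12 and 13.09. The groups were well apart, and the log2 change was -0.28 ± 0.05 (adjusted p = 0.00133). Rpl13a, which in human cells also leaves the ribosome to silence translation of inflammatory mRNAs, gave 10.55 and 10.84 with G-CSF, against 11.03, 11.03 and 10.95 without it. Its arrays with G-CSF were apart from each other, though both lay below the rest, and its log2 change was -0.31 ± 0.08 (adjusted p = 0.00872).

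Rpl34 gave 13.22 and 13.33 with G-CSF, against 13.55, 13.48 and 13.45 without it (log2 change -0.22 ± 0.06, adjusted p = 0.0119). Rpl32 gave 13.84 and 13.93 with G-CSF, against 14.02, 14.04 and 14.11 without it (log2 change -0.17 ± 0.06, adjusted p = 0.0322). Both are 60S proteins, and their groups did not overlap.

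Called higher were 3 genes. Rps27l, a paralog of the 40S protein Rps27 that p53 induces, gave 13.87 and 13.79 with G-CSF, against 13.59, 13.59 and 13.71 without it (log2 change 0.20 ± 0.05, adjusted p = 0.0100). Rpl30, a small 60S protein that touches the 40S subunit, gave 11.61 and 11.49 with G-CSF, against 11.39, 11.32 and 11.38 without it (log2 change 0.19 ± 0.05, adjusted p = 0.0106). Rpl23, a 60S protein that can bind the p53 ubiquitin ligase Mdm2, gave 14.59 and 14.62 with G-CSF, against 14.46, 14.51 and 14.47 without it (log2 change 0.12 ± 0.05, adjusted p = 0.0464). All 3 were higher on both arrays with G-CSF than on every array without it. Groups of this size were also apart for members not called, such as Rpl36al, Rpl29 and Rps3, and such separation was not counted over all features.

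Not all of these calls stood on both stimulated arrays. Without stimulated GY118F replicate 2, the calls of Rpl13a, Rpl34, Rpl32, Rpl30, Rps27l and Rpl23 were lost. Of the calls given above, only those of Rpl22 and Rpl24 were kept. With 1 array left in that group, the log2 changes were -0.16 for Rpl13a, -0.17 for Rpl34 and -0.13 for Rpl32. For Rpl30 and Rps27l they were 0.13 and 0.16. Rpl22 and Rpl24 stayed called under every alternative that kept the threshold. The call of Rpl23 was kept in 4 of 22 alternatives, and its sign turned (-0.02, adjusted p = 0.785) when its probes were averaged.

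**Figure D2:**
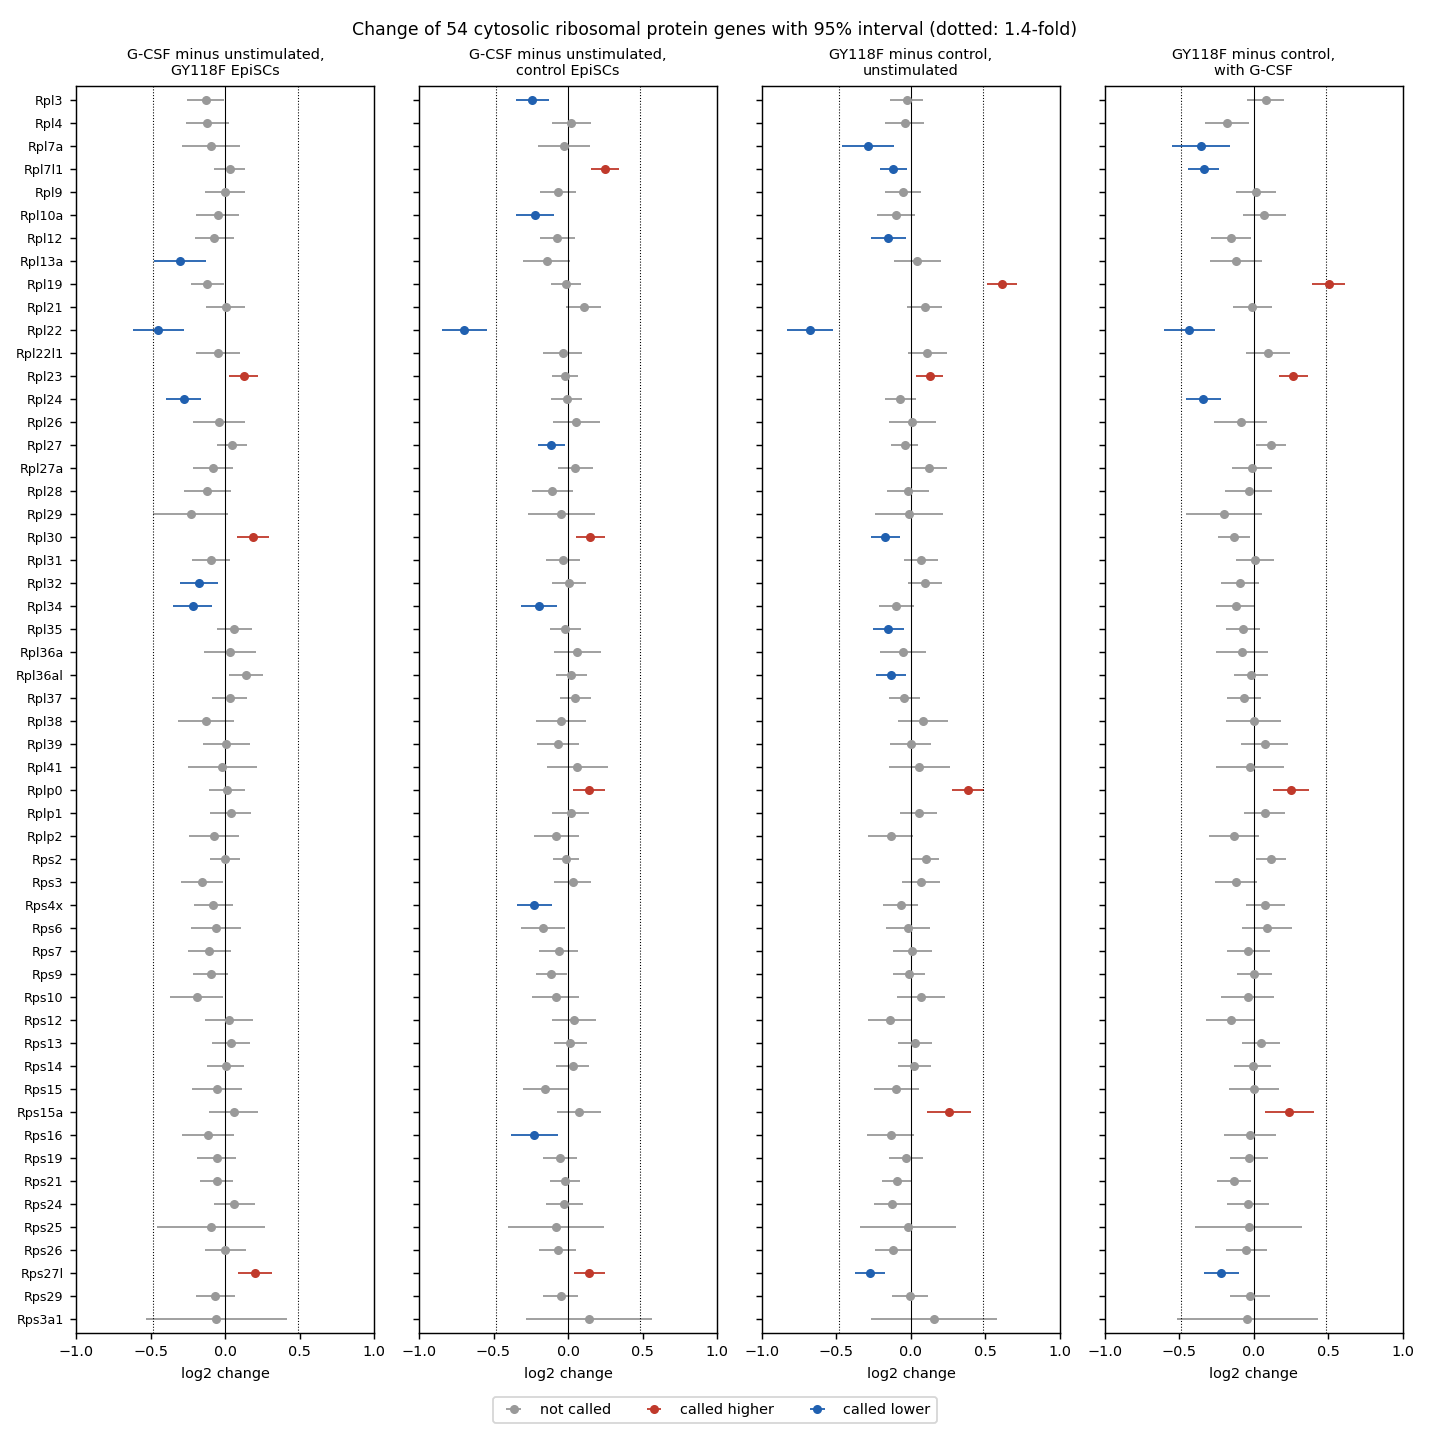
Each row is a ribosomal protein gene and each panel a comparison, and points give the log2 change with its 95% confidence interval. Red points are called higher and blue points lower at an adjusted p under 0.05, dotted lines mark 1.4-fold, and Rpl22 is lower in all 4 panels while Rpl19 is higher in both panels that compare the lines.

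Control EpiSCs given G-CSF lack the transgene and show what changed without it. Among the 54 genes 4 rose and 7 fell (20.4%), while 42.1% of all features were called, 19.5% higher and 22.6% lower. Only Rpl22 passed 1.4-fold, against 7.44% of all features. The median log2 change of the members was -0.03, against 0.00 over all features. Values were below 0 for 34 of the 54 members and for 5572 of the 11208 features.

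Rpl22 fell here as well. It gave 10.68, 10.78 and 10.55 on the control arrays with G-CSF, against 11.36, 11.28 and 11.45 on those without it. The gap between the groups exceeded the range within either, and the log2 change was -0.695 ± 0.07 (adjusted p = 7.06e-06), or 0.618-fold.

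Rpl3, a 60S protein beside the peptidyl transferase centre, gave 14.21, 14.27 and 14.13 with G-CSF, against 14.44, 14.40 and 14.49 without it (log2 change -0.24 ± 0.05, adjusted p = 0.00223). Rps4x, the X-linked 40S protein, gave 14.30, 14.30 and 14.21 with G-CSF, against 14.50, 14.53 and 14.47 without it (log2 change -0.23 ± 0.05, adjusted p = 0.00466). Rpl10a, the protein of the L1 stalk, gave 14.37, 14.33 and 14.54 with G-CSF, against 14.64, 14.68 and 14.59 without it (log2 change -0.22 ± 0.06, adjusted p = 0.00859). In each of these the arrays with G-CSF lay below every array without it.

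Rps16, a 40S protein, gave 13.66, 13.80 and 13.96 with G-CSF, against 14.07, 14.08 and 13.95 without it, and was the only called member whose arrays overlapped between the groups (log2 change -0.23, adjusted p = 0.0241). The 60S genes Rpl34 (log2 change -0.19, adjusted p = 0.0116) and Rpl27 (-0.11, adjusted p = 0.0458) fell less.

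Rpl7l1, a paralog of Rpl7 that acts in the assembly of early 60S precursors, rose most. It gave 10.84, 10.90 and 10.84 with G-CSF, against 10.63, 10.59 and 10.62 without it. No array of either group came near the other group, and the log2 change was 0.25 ± 0.04 (adjusted p = 5.00e-04). Rpl30 (0.15, adjusted p = 0.0187), Rps27l (0.14, adjusted p = 0.0295) and Rplp0 (0.14, adjusted p = 0.0368) rose less. The calls of Rpl22, Rpl3, Rps4x, Rpl10a and Rpl7l1 were kept under every alternative at this threshold. Without 1 array at a time 6 to 12 members were called, with 6 each without control replicate 2 with G-CSF and without control replicate 1 without it, and 7 each without stimulated control replicate 1 and unstimulated control replicate 3.

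**Figure D3:**
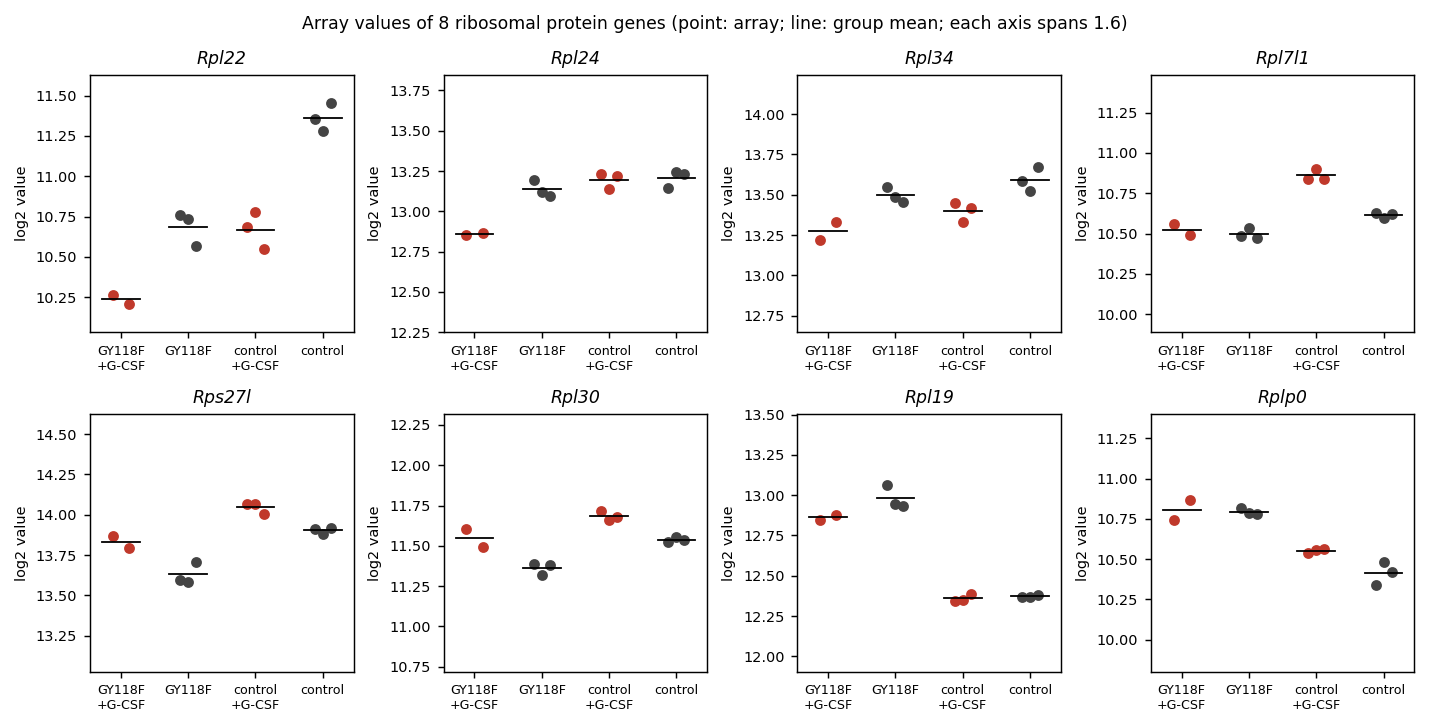
Points are the log2-scale values on single arrays for the members that carry the results, by group, and lines mark group means. Rpl22 is lower with G-CSF in both lines, Rpl24 is low only on the 2 GY118F arrays with G-CSF, and Rpl19 separates the lines with and without G-CSF.

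The G-CSF comparisons of the lines share no array, but their tests use 1 estimate of spread per feature. Called higher in both were Rpl30 and Rps27l, which are 66.7% of the 3 that rose in GY118F EpiSCs and 50% of the 4 that rose in control EpiSCs. Called lower in both were Rpl22 and Rpl34, which are 40% of the 5 that fell in GY118F EpiSCs and 28.6% of the 7 that fell in control EpiSCs. Over all features, those called higher in both lines were 69.1% of the rises in GY118F EpiSCs and 63.2% of those in control EpiSCs, and those called lower in both were 70.9% of the falls in GY118F EpiSCs and 68.7% of those in control EpiSCs. No member was called in opposite directions. In all, 15 of the 54 genes (27.8%) were called after G-CSF in either line, against 53.3% of all features.

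The difference of the G-CSF effects, GY118F minus control, was tested on its own. It was called for 1 of 54 members, lower for Rpl24 (1.85%), against 6.0% of all features, 3.85% higher and 2.14% lower. No member's difference passed 1.4-fold, against 2.48% of all features. Rpl24 gave 13.23, 13.14 and 13.22 on control arrays with G-CSF and 13.14, 13.25 and 13.23 on those without it, a log2 change of -0.01 ± 0.05, set against -0.28 ± 0.05 in GY118F EpiSCs. The difference was -0.27 ± 0.07 (adjusted p = 0.0482), and its largest adjusted p over the alternatives was 0.135. It was kept in 5 of 21 alternatives. It was lost on leaving out any single array other than unstimulated GY118F replicate 3, while its value stayed between -0.30 and -0.24.

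For Rpl7l1 the log2 change was 0.03 ± 0.05 in GY118F EpiSCs (adjusted p = 0.679) and 0.25 ± 0.04 in control EpiSCs. The difference of -0.22 ± 0.06 was not called (adjusted p = 0.0690). Its dimmer second probe was called higher in both lines, at 0.18 in GY118F and 0.31 in control EpiSCs. For that probe the difference of -0.13 was not called (adjusted p = 0.484). For Rpl22 the difference of 0.25 ± 0.11 was not called either (adjusted p = 0.236), with a 95% interval of 0.02 to 0.47. The unadjusted limma p of the difference was under 0.05 for 6 of 54 members, against 2009 of 11208 features.

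**Figure D4:**
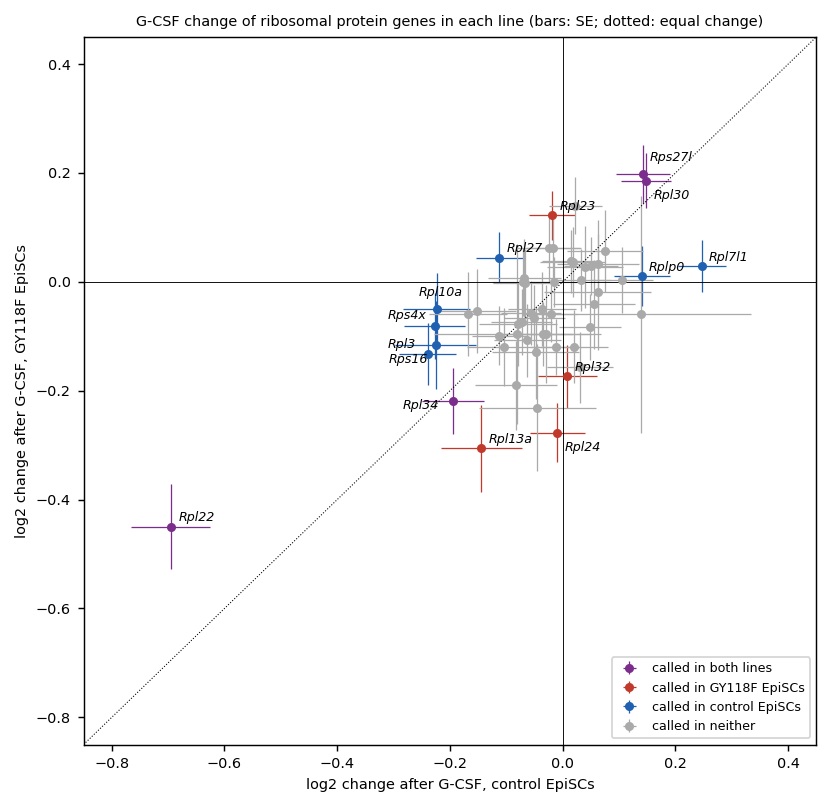
Each point is a ribosomal protein gene, with its log2 change after G-CSF in GY118F EpiSCs on the y axis and in control EpiSCs on the x axis, and bars give the SE. Rpl22 lies lowest in both lines, and Rpl24 lies near 0 in control EpiSCs and at -0.28 in GY118F EpiSCs.

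The lines also differed before G-CSF. In unstimulated cells 4 members were higher and 8 lower in GY118F than in control EpiSCs (22.2%), while 33.2% of all features were called, 16.7% higher and 16.5% lower. Over 1.4-fold were Rpl19 and Rpl22, against 6.51% of all features. The median was -0.02, against 0.00 over all features.

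Rpl19, a 60S protein that reaches across to the 40S subunit, gave 13.06, 12.95 and 12.94 in unstimulated GY118F EpiSCs, against 12.37, 12.37 and 12.38 in unstimulated control EpiSCs. The log2 difference was 0.61 ± 0.05 (adjusted p = 4.89e-07), or 1.53-fold. With G-CSF it gave 12.85 and 12.88 in GY118F EpiSCs, against 12.34, 12.35 and 12.39 in control EpiSCs, a log2 difference of 0.50 ± 0.05 (adjusted p = 9.64e-06). The lines were apart in both states, and G-CSF changed Rpl19 past the threshold in neither line (adjusted p = 0.0807 and 0.856).

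Rpl22 went the other way: its log2 difference, GY118F minus control, was -0.68 ± 0.07 without G-CSF (adjusted p = 8.99e-06) and -0.43 ± 0.08 with it (adjusted p = 0.00106). Rplp0, the protein on which the stalk is built, was higher in GY118F EpiSCs, at 10.82, 10.78 and 10.78 against 10.34, 10.48 and 10.42 in control EpiSCs without G-CSF (log2 difference 0.38 ± 0.05, adjusted p = 6.55e-05). With G-CSF it gave 10.74 and 10.87 in GY118F EpiSCs, against 10.54, 10.56 and 10.56 in control EpiSCs (log2 difference 0.25, adjusted p = 0.00404).

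Rps27l was lower in GY118F EpiSCs, with a log2 difference of -0.27 ± 0.05 without G-CSF (adjusted p = 6.70e-04) and -0.22 ± 0.05 with it (adjusted p = 0.00770). Rpl7a, a 60S protein, was lower in both states as well, at -0.29 without G-CSF (adjusted p = 0.0150) and -0.35 with it (adjusted p = 0.0100). The 40S protein Rps15a, measured near the bottom of the scale, was higher in both, at 0.26 without G-CSF (adjusted p = 0.0102) and 0.24 with it (adjusted p = 0.0297). Rpl23 was higher without G-CSF as well (0.12, adjusted p = 0.0307), but its other probes gave 0.10 and 0.73, and the mean of its probes gave 0.32. The remaining members called without G-CSF were lower, by less than 1.2-fold: Rpl30 (-0.17, adjusted p = 0.0102), Rpl12 at the stalk base (-0.15, adjusted p = 0.0475), Rpl35 at the exit tunnel (-0.15, adjusted p = 0.0278), Rpl36al (-0.13, adjusted p = 0.0447) and Rpl7l1 (-0.12, adjusted p = 0.0499). Of 22 alternatives at this threshold, 2 kept the call of Rpl7l1, 6 that of Rpl12 and 8 that of Rpl36al. The call of Rpl35 was kept in 17 and that of Rpl30 in 21. The second probe of Rpl7l1 gave 0.02. Without unstimulated control replicate 1, 7 members were called in place of 12, and 8 were called without each of unstimulated control replicates 2 and 3 and unstimulated GY118F replicates 2 and 3.

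With G-CSF, 4 members were higher and 5 lower in GY118F EpiSCs (16.7%), while 29.9% of all features were called, 15.6% higher and 14.4% lower. Only Rpl19 passed 1.4-fold, against 6.64% of all features. Beside the genes already given, Rpl24 (-0.34 ± 0.05, adjusted p = 3.99e-04) and Rpl7l1 (-0.34 ± 0.05, adjusted p = 1.61e-04) were lower, and Rpl23 was higher (0.27 ± 0.05, adjusted p = 6.40e-04). These comparisons share arrays with the G-CSF comparisons. Between the lines 8 members were called both with and without G-CSF, where 33.2% of all features were called without it and 29.9% with it. The overlap over all features was not counted. Without stimulated GY118F replicate 3, 6 members were called in place of 9.

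The lines differed in more than the receptor. Xist, the RNA of the inactive X chromosome, lay at 7.15 to 7.22 on GY118F arrays and at 9.35 to 10.14 on control arrays, and the Y-linked Eif2s3y at 8.71 to 9.17 on GY118F arrays and at 7.13 to 7.24 on control arrays; these genes were looked up after results were seen. The mean of the 8 EpiSC markers was 9.51 to 9.67 on unstimulated GY118F arrays and 10.21 to 10.34 on unstimulated control arrays. The X-linked members Rps4x (-0.07), Rpl39 (-0.00) and Rpl36a (-0.05) were not called between unstimulated lines. The receptor and these other differences between the lines cannot be told apart, and their part in the results was not tested.

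The calls were also counted by subunit. After G-CSF in GY118F EpiSCs 2 rose and 5 fell of 33 60S genes (21.2%), and 1 rose and 0 fell of 21 40S genes (4.76%), against 39.8% of all features. In control EpiSCs 3 rose and 5 fell of the 60S genes (24.2%), and 1 rose and 2 fell of the 40S genes (14.3%), against 42.1% of all features. Between unstimulated lines 3 were higher and 7 lower of the 60S genes (30.3%), and 1 higher and 1 lower of the 40S genes (9.52%), against 33.2% of all features. The subunits were not tested against each other.

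The stalk is formed by Rplp0 with Rplp1 and Rplp2. Rplp1 was not called in any comparison, and at the top of the scale its log2 changes after G-CSF were 0.04 in GY118F and 0.02 in control EpiSCs. Rplp2 was not called either, with -0.08 in both lines. Rplp0 changed by 0.01 ± 0.06 after G-CSF in GY118F EpiSCs (adjusted p = 0.904), so only in control EpiSCs was it called after G-CSF; the difference of -0.13 ± 0.07 was not called (adjusted p = 0.411).

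Among the other members, Rpl36al, Rpl36a, Rps6, Rpl38 and Rps19 were not called after G-CSF in either line. Rpl36al, an autosomal copy of the X-linked Rpl36a, gave a log2 change of 0.14 ± 0.05 after G-CSF in GY118F EpiSCs (adjusted p = 0.0514) and 0.02 in control EpiSCs, and Rpl36a gave 0.03 in GY118F and 0.06 in control EpiSCs. Rps6, the substrate of the S6 kinases, gave -0.06 ± 0.08 in GY118F EpiSCs (adjusted p = 0.589) and -0.17 ± 0.07 in control EpiSCs (adjusted p = 0.0693). Rpl38, mutated in the Tail short mouse, gave -0.13 in GY118F and -0.05 in control EpiSCs, and Rps19, mutated in human Diamond-Blackfan anaemia, gave -0.06 in both lines. Their dimmer second probes had the opposite sign. For Rpl38 this probe gave 0.10 in GY118F and 0.08 in control EpiSCs and was not called. For Rps19 it was called higher in GY118F (0.19, limma adjusted p = 0.0222) and control EpiSCs (0.275, adjusted p = 0.0012), with every probe as a feature. Parents Rpl7 and Rps27 were not analysed here.

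Of the 54 genes, 33 were called in no comparison, a count not made over all features. Most of the uncalled values had narrow intervals, among members as among all features. After G-CSF in GY118F EpiSCs 45 of 46 uncalled members had a 95% interval within 1.4-fold in either direction, and 36 within 1.2-fold. In control EpiSCs these were 42 and 36 of 43. The exception at 1.4-fold was Rps3a1 in both, a dim feature whose replicates spread widely. For the difference of effects, 50 of 53 lay within 1.4-fold but only 24 within 1.2-fold. Over all features, 6539 of 6752 uncalled in GY118F EpiSCs lay within 1.4-fold and 4879 within 1.2-fold. In control EpiSCs 6330 and 5218 of 6485 uncalled features did, and for the difference 9724 and 4739 of 10536.

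The spread of group means was described beside that of all features. The median gap between the highest and lowest group mean was 0.153 for the 54 genes and 0.276 for all features, at a median spread within groups of 0.068 and 0.0698. Among the 206 other features with means of at least 13, a limit chosen after seeing the data, this gap was 0.179. After G-CSF 13.2% of the 38 members at that level were called in GY118F EpiSCs and 18.4% in control EpiSCs, against 21.4% and 25.2% of these other bright features. Between unstimulated lines these shares were 13.2% and 24.8%. They are descriptions, and the difference was not tested.

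**Figure D5:**
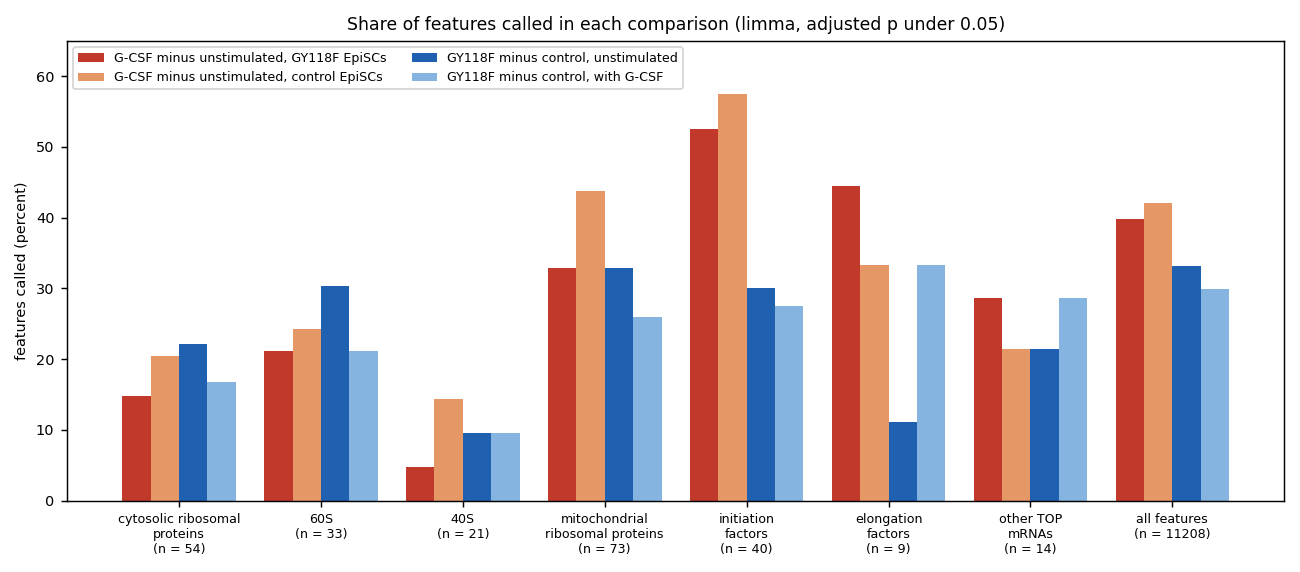
Bars give the percent of features called at an adjusted p under 0.05 in 4 comparisons, for the 54 ribosomal protein genes, their 60S and 40S subsets, lists of other translation genes and all 11208 features. The bars of the 54 genes stand at 14.8%, 20.4%, 22.2% and 16.7%, and those of all features at 39.8%, 42.1%, 33.2% and 29.9%.

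Probes of the same gene did not always agree, and 15 of the 54 genes had several probes (35 in all). The changes of a gene's probes spanned a median of 0.15 after G-CSF in GY118F EpiSCs and 0.10 in control EpiSCs, and no gene had probes called in opposite directions. Called differently were the probes of 6 genes in GY118F and 5 in control EpiSCs. The probes of Rpl23 gave log2 changes of 0.12, -0.12 and -0.06 in GY118F EpiSCs, and differences between the lines with G-CSF of 0.27, -0.15 and 0.44. After G-CSF in GY118F EpiSCs the second probe of Rpl30 gave 0.08, not called, and that of Rpl7l1 gave 0.18, called higher. Ribosomal protein genes have many processed pseudogenes, and how far a probe also binds such copies is uncertain here.

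The 12 genes with CTTTC or CTTTT near the start were counted apart. After G-CSF in GY118F EpiSCs 0 rose and 1 fell (Rpl13a), and in control EpiSCs 0 rose and 0 fell, where 39.8% and 42.1% of all features were called. Their median log2 change was -0.08 in GY118F EpiSCs and -0.07 in control EpiSCs. Among the other 34 matched genes 2 rose and 3 fell in GY118F EpiSCs, at a median of -0.05, and 3 rose and 6 fell in control EpiSCs, at a median of -0.02. Between unstimulated lines 3 of the 12 were lower in GY118F EpiSCs (Rpl7a, Rpl12 and Rpl35) and 0 higher, and of the other 34, 4 were higher and 4 lower, where 33.2% of all features were called.

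Other genes of translation were counted in the same fit. Of 12 measured of 14 listed genes of mTORC1 and TOP translation control, 1 rose and 4 fell after G-CSF in each line (41.7%), close to the 39.8% of all features called in GY118F and 42.1% in control EpiSCs. Ddit4, an mTORC1 inhibitor induced by stress, had a log2 change of -2.20 in GY118F EpiSCs and -2.27 in control EpiSCs. The mTORC1 inhibitors Sesn1 and Sesn2 and the translation repressor Eif4ebp1 fell in both as well, at -0.92, -0.73 and -0.64 in GY118F EpiSCs and at -0.94, -0.43 and -0.57 in control EpiSCs. The repressor Eif4ebp2 rose by 0.18 in GY118F EpiSCs and by 0.16 in control EpiSCs. Mtor and Larp1 were not called, with 0.02 and 0.13 in GY118F EpiSCs and 0.08 and 0.10 in control EpiSCs. Rptor, the mTORC1 scaffold, was higher in GY118F than in control EpiSCs by 0.68 without G-CSF.

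Of the 73 mitochondrial ribosomal protein genes, which form a separate ribosome, 16 rose and 8 fell after G-CSF in GY118F EpiSCs (32.9%, against 39.8% of all features) and 22 rose and 10 fell in control EpiSCs (43.8%, against 42.1%). Mrpl20 rose by 0.53 in GY118F and 0.75 in control EpiSCs, and Mrpl14 changed by -0.61 in GY118F and -0.60 in control EpiSCs. Of 40 initiation factor symbols, which include the Eif4ebp and Eif2ak genes, 14 rose and 7 fell in GY118F EpiSCs (52.5%) and 18 rose and 5 fell in control EpiSCs (57.5%), against the same shares of all features. Eif1a rose by 0.83 in GY118F and 0.44 in control EpiSCs, a difference of 0.40 (adjusted p = 0.0292), and Eif4b changed by -0.44 in GY118F and -0.36 in control EpiSCs. Of 9 elongation factor symbols, which include methyltransferases of these factors, 2 rose and 2 fell in GY118F EpiSCs (44.4%) and 2 rose and 1 fell in control EpiSCs (33.3%), with Eef2 at -0.41 in GY118F and -0.33 in control EpiSCs. Of 14 measured of 20 other mRNAs with a known 5′ TOP, 1 rose and 3 fell in GY118F EpiSCs (28.6%) and 1 rose and 2 fell in control EpiSCs (21.4%). Of 2 measured S6 kinases, Rps6ka5 fell in control EpiSCs (-0.17).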

How the data were processed

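Per the labels' protocols, RNA came from a Qiagen RNeasy kit, and biotin labelling used Ambion's Illumina TotalPrep-96 method. The authors deposited 1 table of log2-scale values, for which the submitters' processing notes name lumi; its version and transform are not given in the sources used here, and it holds no detection p-values. The number of arrays limits the precision.

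Probes were named through GEO's platform annotation. The probe with the highest mean over the arrays was kept per symbol, and 2007 probes without a single symbol were kept, with no filter on dim features. All 11 arrays were fitted as 4 group means with limma 3.58.1 (lmFit, eBayes) in R 4.3.3, two-sided, with Benjamini-Hochberg adjustment over 11208 features at 0.05; the fit was tested on simulated data. Members and lists were chosen with earlier results of these data known, and lists are described by counts and medians only. Members named are the up to 8 largest called rises and falls per comparison, stalk genes and paralogs, and of other lists up to 4 each way; Rps6, Rpl38 and Rps19 were chosen after their values were seen.

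Stimulated GY118F arrays carry numbers 2 and 3 from their source names (their titles give 1 and 2), stimulated control arrays those of their titles. Same-numbered samples did not deviate together in every pair (correlations of deviations were mixed, from -0.293 to 0.543), and no block was used. Alternatives were both replicate blocks, only the arrays compared, every probe, mean of probes, no dimmer 50% of features, a floor, rescaling, trend and robust, array weights, stricter thresholds and leaving out each array.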

Additional observations from a re-analysis of the deposited data

Results flagged for a closer look

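The response of Rpl24 to G-CSF differed between the lines by the test of the difference itself. The difference of log2 changes, GY118F minus control, was -0.27 ± 0.07 (SE), with a limma adjusted p of 0.0482, and both stimulated GY118F arrays lay below every other array. The call was lost in 16 of 21 alternatives at the same threshold.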

How the results depend on the processing

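Counts of called members moved by over 1.5 times from the 8, 11, 1, 12 and 9 of G-CSF in GY118F EpiSCs, G-CSF in control EpiSCs, the difference of effects, and GY118F against control without and with G-CSF as follows. A fit of only the arrays compared called 5 for G-CSF in GY118F EpiSCs and 7 between unstimulated lines. Every probe as a feature gave 19 of 74 probes for G-CSF in control EpiSCs (11 higher, 8 lower) and 0 for the difference. In GY118F EpiSCs it gave 12 (7 higher, 5 lower), which is 1.5 times and not over it. These are counts of probes, set against counts among 54 genes. Leaving out the dimmer 50% of features gave 7 between unstimulated lines and 0 for the difference, and a floor gave 4 for the difference. With the replicate block the counts were 8, 11, 0, 10 and 9, with title numbers 7, 11, 0, 11 and 10, and trend with robust gave 0 for the difference. An adjusted p under 0.01 left 3, 5, 0 and 4 in the first 4 comparisons, and a 1.4-fold minimum left 0, 1, 0, 2 and 1. Leaving out single arrays gave 4 to 8, 6 to 12, 0 to 1, 7 to 10 and 6 to 11 calls, and medians of -0.0606 to -0.0472, -0.0395 to -0.0215, -0.0252 to 0.0037, -0.0310 to -0.0198 and -0.0457 to -0.0205. Rpl23 in GY118F EpiSCs reversed to -0.0171 with the mean of its probes (adjusted p = 0.785); the cause was not tested. Of 1687 values of 71 gene results, 1470 were counted as unchanged, 211 missed the threshold in use, 5 newly passed it and 1 reversed. The unchanged values include uncalled ones whose sign turned, and the 211 include those under the stricter thresholds. Signals near the top of the scale and no detection p-values limit what can be seen for bright and dim members.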
